A study of Mus musculus with 32 samples.

Results

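The expression of 36 imprinted genes was followed while mouse embryonic stem (mES) cells were turned into primitive endoderm (PrE)-like cells by GATA6. Members were chosen by symbol, as known imprinted genes, with earlier results of these data known. All 36 have a row among the 54233 rows of the expression table. Of these, 33 reached a normalised count of 10 in 4 or more samples and were tested together with 15227 genes in all, whereas *Magel2*, *Dcn* and *Rasgrf1* stayed below that level. The data are bulk polyA RNA-seq from 8 time points with 4 replicates each, 32 samples in all. All samples came from the KH2 line (strain given as C57BL/6), which carries a doxycycline (Dox)-inducible TRE:GATA6-DsRed2 transgene. At 0 h the cells had no Dox and grew in 2i medium, which holds inhibitors of MEK and GSK3 together with LIF. Cells at 2, 4 and 8 h were in serum medium with LIF and Dox at 1 µg/ml, and cells at 16, 24, 48 and 96 h had 12 h of Dox in that medium and then serum medium without Dox. In any comparison with 0 h, the effects of Dox and of the medium therefore cannot be told apart.

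Imprinted genes are expressed mostly or only from the chromosome inherited from one parent. DNA methylation laid down in the egg or sperm at imprinting control regions marks the parental copies, and the mark is kept through the wave of demethylation that follows fertilization, with the help of KRAB zinc finger proteins and TRIM28. Many imprinted genes act in fetal and placental growth, often with paternally expressed genes promoting growth and maternally expressed genes restraining it. Several lie in clusters in which a long noncoding RNA is expressed from the opposite parental chromosome to its protein-coding neighbours. The PrE, the lineage that forms the yolk sac endoderm, is among the extraembryonic tissues in which such genes are active. The counts used here do not separate the 2 parental copies, so they give the total RNA of a gene and not its imprinting. In these bulk samples, fewer cells expressing a gene and less RNA per cell cannot be told apart.

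Some of the members carry sequences that are processed into other RNAs. The mature microRNAs encoded within *H19* and *Igf2* are given below from RefSeq (GRCm38.p6), because these 2 hosts had the largest differences from 0 h; capitals mark the seed, bases 2 to 8.
mmu-miR-675-5p: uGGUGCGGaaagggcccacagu
mmu-miR-675-3p: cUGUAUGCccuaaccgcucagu
mmu-miR-483-5p: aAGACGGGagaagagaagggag
mmu-miR-483-3p: uCACUCCUccccucccgucuu
The first pair lies on the minus strand at chr7:142577112-142577133 and chr7:142577078-142577099 within *H19*, and the second pair at chr7:142654968-142654989 and chr7:142654932-142654952 within *Igf2*. None of the 4 shares its seed with another. PolyA libraries do not measure mature microRNAs, and the values below are those of the host transcripts.

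Depth, as reads on genes, lay between 3190108 and 12301732 (median 8870662.5). The summed normalised count of 13 PrE markers was 1074 to 1323 at 0 h and 317200 to 435400 after 96 h, and that of 12 pluripotency markers was 48600 to 56460 at 0 h and 8768 to 9980 after 96 h. *Gata6* itself had a mean normalised count of 0.371 at 0 h and 2067 after 96 h. The libraries formed 2 sets, one of replicates 1 and 2 and the other of replicates 3 and 4. Deviations from the time point means correlated at 0.196 on average between samples of one set and at -0.196 between sets, and the labels name no batch. Because many imprinted genes differed between these sets, values within each set are given beside the results they touch. Replicates here are samples labelled as such. The paper states that replicate experiments were done independently, but the labels do not say how the cultures were separated. The p-values measure only the spread between these replicates.

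By 48 h, more of the chosen members were higher than lower, while of 31 other imprinted genes tested 8 were higher and 13 lower at FDR below 0.1. The members were chosen with earlier results of these data known, so their shares do not describe imprinted genes in general. Of the 33 members tested, 12 were higher by at least 4-fold and 3 were lower by at least 4-fold than at 0 h (limma on log2(normalised count + 1), Benjamini-Hochberg FDR below 0.1), against 8.48% and 7.09% of all genes tested. At 96 h, 11 were higher and 3 lower (9.28% and 10.3% of all genes). Without the limit on size, 17 rose and 8 fell by 48 h (36.1% and 37.3% of all genes), and 18 rose and 12 fell by 96 h (38.0% and 38.5%), after 12 and 2 by 2 h (22.2% and 22.6%). The median log2 fold change of the members was 0.41 after 48 h and 0.47 after 96 h, against -0.02 and -0.03 over all genes tested. The 4-fold calls were few at first: 1 higher and 1 lower after 2 h (2.0% and 0.348% of all genes), 3 and 0 after 4 h (2.69% and 0.709%), 4 and 0 after 8 h (3.4% and 1.31%), 4 and 1 after 16 h (4.03% and 2.4%), and 7 and 2 after 24 h (4.85% and 4.34%). Over all time points, 12 members were called higher at least once (13.6% of all genes) and 5 lower (12.1%), with *Ascl2* among both, and 17 were never past the 4-fold threshold. Of 15 maternally expressed genes tested, 10 rose and 1 fell by 48 h at FDR below 0.1 (median log2 fold change 1.1). Of 16 paternally expressed genes, 6 rose and 6 fell by 48 h (median 0.08). At 96 h both classes were found on both sides. Then 8 maternally expressed genes rose and 5 fell (median 0.47), and 9 paternally expressed genes rose and 6 fell (median 0.56). The difference between the classes was not tested. The heat map shows all tested members, grouped by role.

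**Figure D1:**
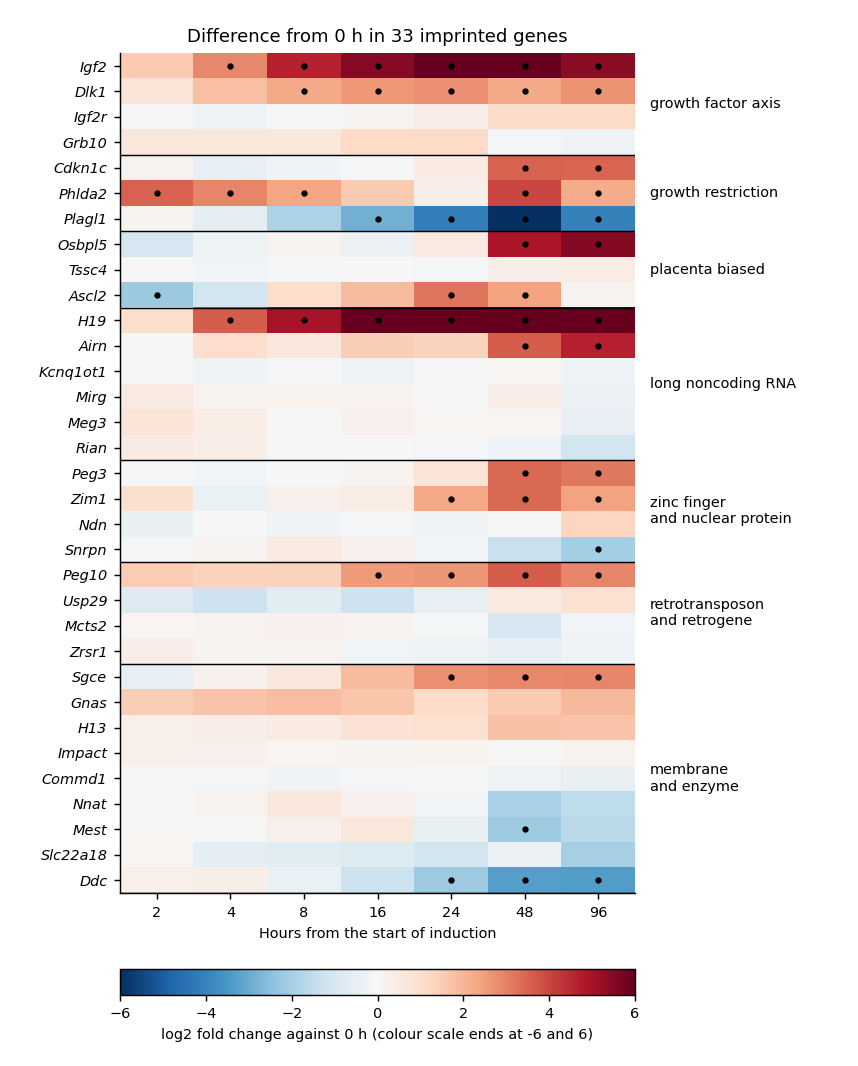
Heat map of the log2 fold change against 0 h (colour) of the 33 imprinted genes tested, by role (rows) and hours from the start of induction (columns). Each cell is the difference between means of 4 samples, and a black dot marks FDR below 0.1 with at least a 4-fold change; *H19* and *Igf2* carry dots from 4 h on, *Osbpl5*, *Cdkn1c*, *Peg3* and *Airn* from 48 h, and *Plagl1* and *Ddc* turn blue.

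Among the growth factor genes, *Igf2* had the largest difference. *Igf2* encodes insulin-like growth factor 2, a fetal growth factor expressed from the paternal chromosome (ENSMUSG00000048583, chr7:142650766-142666816). It had 0 reads in every sample at 0 h, normalised counts of 37.7, 25, 19.4 and 16.7 after 8 h, 258, 234, 102 and 96 after 48 h, and 82.8, 77.8, 21.3 and 21.7 after 96 h. All later samples lay above those at 0 h, and the 2 sets did not overlap at 48 or 96 h. Against a floor of 3 reads per library, *Igf2* was at least 48.4-fold higher after 48 h and at least 14.3-fold higher after 96 h (log2 fold change 7.29 ± 0.40 SE, adjusted p = 4.3e-16, and 5.42 ± 0.40, adjusted p = 3.1e-13). By 96 h the log2 change was 6.34 in replicates 1 and 2 and 4.49 in replicates 3 and 4. The row counts only part of the gene: 3596 of its 5723 exon bases are shared with the annotated row *Gm49394*, which had no reads. *Igf2os*, annotated on the opposite strand of *Igf2*, went from 0.515 ± 0.66 (SD, n = 4) at 0 h to 234 ± 11.1 after 48 h and 124 ± 40.4 after 96 h.

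*Dlk1*, a paternally expressed transmembrane protein with EGF repeats, was near the detection limit throughout. Its normalised counts were 0, 2.72, 1.61 and 1.89 at 0 h, 2.83, 17, 14.1 and 14.4 after 48 h, and 8.49, 13.7, 18.8 and 17 after 96 h, so that samples at both later times lay above those at 0 h. The log2 difference was 2.29 ± 0.45 after 48 h (adjusted p = 4.8e-05), and the difference after 96 h also passed the test (adjusted p = 3.9e-06). No fold is given, since the mean at 0 h lay under the floor of 3 reads per library. With a pseudocount of 4 in place of 1 the log2 differences were 1.44 and 1.72, under the 4-fold threshold. *Igf2r*, the maternally expressed receptor that carries IGF2 to the lysosome, rose. It had 392, 536, 804 and 784 normalised counts at 0 h and 1159, 1088, 1626 and 1506 after 96 h, which is 2.14-fold higher (log2 1.13 ± 0.25, adjusted p = 0.00019). *Grb10*, an adaptor that dampens insulin and IGF receptor signalling, rose from 603 ± 33.7 (SD, n = 4) at 0 h to 1347 ± 244 after 24 h (adjusted p = 1.5e-06) and was back at 514 ± 121 after 96 h (log2 -0.26 ± 0.17, adjusted p = 0.18).

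*Cdkn1c* and *Phlda2* were higher than at 0 h by 48 h, whereas *Plagl1* was lower. *Cdkn1c* encodes the CDK inhibitor p57 and is maternally expressed (chr7:143458339-143461050). It had 20.7, 12.2, 21 and 13.2 normalised counts at 0 h, 33.6, 25, 18.3 and 20.4 after 24 h, 259, 281, 151 and 146 after 48 h, and 540, 557, 61.5 and 79.4 after 96 h. The late samples all lay above the early ones, but at 96 h the 2 sets lay far apart, with replicates 1 and 2 at 7.79 times the mean of replicates 3 and 4. The difference from 0 h was 3.54 ± 0.48 on the log2 scale after 48 h (adjusted p = 1.4e-07) and 3.51 ± 0.48 after 96 h (adjusted p = 1.2e-07). Between 48 and 96 h the log2 change was 1.02 within replicates 1 and 2 and -1.08 within replicates 3 and 4. Against 0 h, the log2 change at 96 h was 5.02 and 2.00 within the sets. Of the 2039 exon bases of *Cdkn1c*, 625 are shared with *Gm44732*, annotated on the opposite strand.

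*Phlda2*, a pleckstrin homology protein that limits placental growth, had 2 peaks. Its normalised counts were 24.8, 27.2, 18.5 and 5.67 at 0 h, 225, 275, 168 and 157 after 2 h, 36, 40.1, 18.3 and 7.34 after 24 h, 440, 411, 190 and 174 after 48 h, and 139, 149, 47.7 and 41.6 after 96 h. Samples at 2 and 48 h lay above all samples at 0 h, whereas those after 24 h overlapped with 0 h. The log2 difference from 0 h was 3.52 ± 0.47 after 2 h (adjusted p = 4.2e-07), 0.34 ± 0.47 after 24 h (adjusted p = 0.55), 3.99 ± 0.47 after 48 h (adjusted p = 8.3e-09) and 2.21 ± 0.47 after 96 h (adjusted p = 0.0001). It was the 1 member called higher at 2 h. The call at 96 h sat at the threshold and was lost without 0 h replicate 4 (1.75) or with libraries scaled by total reads (1.96).

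*Plagl1*, a paternally expressed zinc finger transcription factor, fell furthest of all members. It had 414, 462, 566 and 623 normalised counts at 0 h, 24, 29.4, 26.4 and 31 after 24 h, 3.77, 5.65, 8.8 and 3.1 after 48 h, and 43.5, 33.7, 16.3 and 31.2 after 96 h. Every sample from 24 h on lay below those at 0 h, and all 4 samples after 96 h lay above the 4 samples after 48 h. At 48 h *Plagl1* was 96.9-fold lower than at 0 h (log2 -6.42 ± 0.26, adjusted p = 2.6e-19) and after 96 h 16.6-fold lower (log2 -4.07 ± 0.26, adjusted p = 9.2e-15). Its rise between 48 and 96 h was 2.35 ± 0.26 on the log2 scale (adjusted p = 1.4e-08), and within replicates 3 and 4 that step was 1.90.

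**Figure D2:**
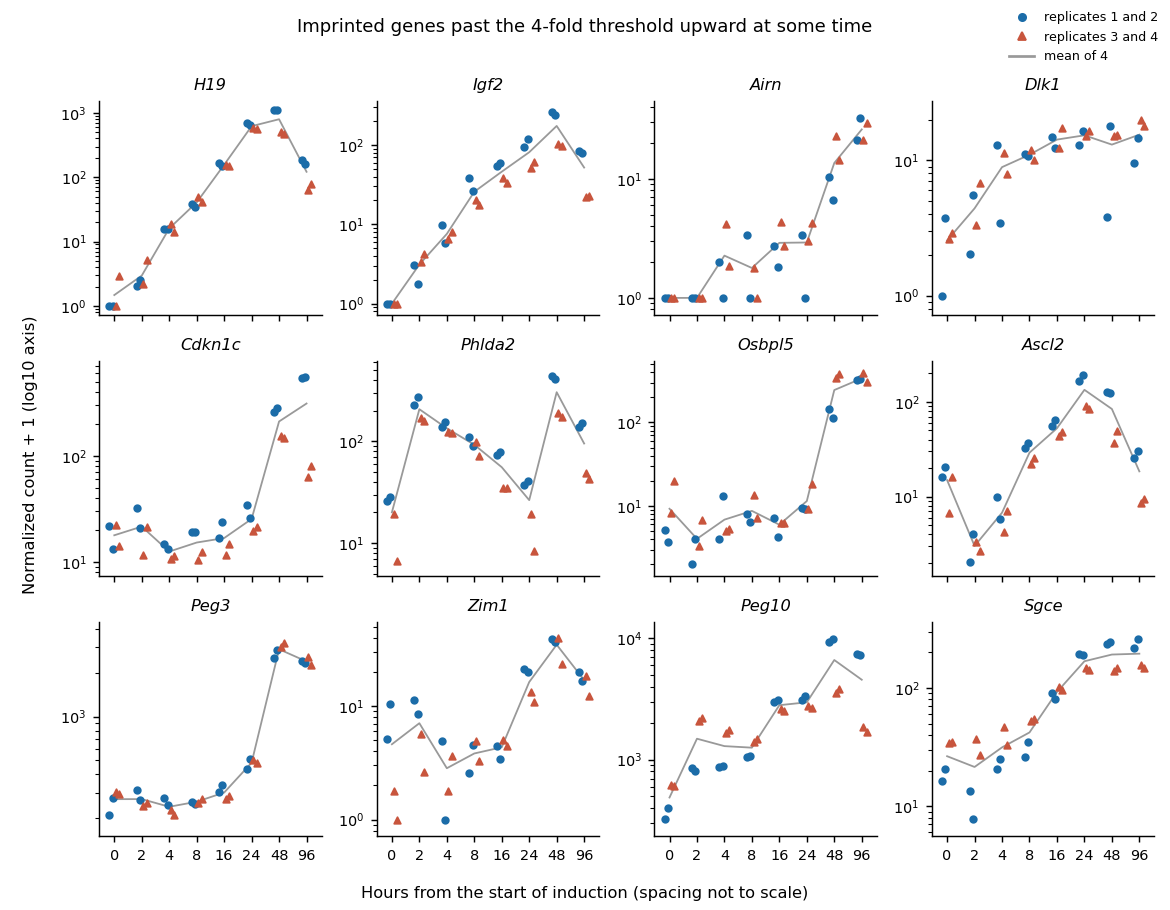
Normalised count + 1 (log10 axis) of the 12 imprinted genes called higher than at 0 h at some time point, by hours from the start of induction (8 time points, spacing not to scale). Each point is 1 sample, blue circles for replicates 1 and 2 and red triangles for replicates 3 and 4, and the line joins the means; *H19* and *Igf2* climb from 2 h, *Phlda2* peaks at 2 and at 48 h, and the sets separate at 96 h in *Cdkn1c* and *Peg10*.

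The genes with placenta-biased imprinted expression were *Ascl2*, *Osbpl5*, *Tssc4* and the untested *Dcn*. *Osbpl5*, an oxysterol binding protein family member, appeared between 24 and 48 h. Its normalised counts were 4.14, 2.72, 7.25 and 18.9 at 0 h, 8.41, 8.14, 8.12 and 17.1 after 24 h, 145, 111, 342 and 376 after 48 h, and 319, 333, 388 and 305 after 96 h. Samples at 48 and 96 h lay far above all earlier ones. It was 29.5-fold higher after 48 h (log2 4.84 ± 0.45, adjusted p = 6.4e-11) and 40.8-fold higher after 96 h (log2 5.49 ± 0.45, adjusted p = 2.7e-12), and the step from 24 to 48 h was 4.30 ± 0.45 (adjusted p = 3.5e-09).

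*Ascl2*, a bHLH transcription factor of the trophoblast, fell, rose and fell again. It had 15.2, 19.7, 5.64 and 15.1 normalised counts at 0 h, 1.04, 3.02, 2.34 and 1.64 after 2 h, 167, 192, 89.4 and 84 after 24 h, 126, 122, 36.1 and 48.5 after 48 h, and 24.4, 29.4, 7.53 and 8.51 after 96 h. The 2 h samples lay below and the 24 h samples above all samples at 0 h, and the 96 h samples overlapped with 0 h. The log2 differences from 0 h were -2.24 ± 0.42 after 2 h (adjusted p = 9.1e-05), 3.19 ± 0.42 after 24 h (adjusted p = 1.8e-07), 2.41 ± 0.42 after 48 h (adjusted p = 1e-05) and 0.20 ± 0.42 after 96 h (adjusted p = 0.68). The early fall rests on counts of a few reads, and with a pseudocount of 4 or within replicates 3 and 4 it was under 4-fold (-1.51 and -1.80). *Tssc4*, a splicing-related gene, ranged from 249 to 364 at 0 h and from 417 to 458 after 96 h, a 1.37-fold rise (log2 0.47 ± 0.10, adjusted p = 0.00012). *Dcn*, which encodes the proteoglycan decorin, had at most 1 read in any sample. The summed count of 10 trophoblast markers ranged from 674 to 756 at 0 h, 441 to 724 after 48 h and 262 to 735 after 96 h. Among them, *Elf5*, *Gcm1* and *Tpbpa* had means of at most 1.39 after 96 h and *Prl3d1* had no reads. *Cdx2* had a mean of 26.2 at 0 h and 32.5 after 96 h. The other markers moved in opposite directions within this sum. *Krt7* rose from a mean of 16.9 at 0 h to 189.5 after 96 h. Over the same time *Gata3* rose from 1.364 to 32.03 and *Hand1* from 0.1698 to 30.05. *Eomes* fell from 262.6 to 96.5 and *Tfap2c* from 398.0 to 129.6.

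The long noncoding RNAs of the imprinted clusters behaved differently from one another. *H19*, a maternally expressed RNA next to *Igf2* (ENSMUSG00000000031, chr7:142575529-142578143), had the largest difference of all members. Its normalised counts were 0, 0, 0 and 1.89 at 0 h, 14.8, 14.5, 17.6 and 13 after 4 h, 692, 658, 571 and 560 after 24 h, 1110, 1093, 508 and 470 after 48 h, and 184, 159, 61.5 and 77.5 after 96 h. Samples from 4 h on lay above all those at 0 h, and every sample after 96 h lay below every sample after 48 h. Against a floor of 3 reads per library it was at least 4.21-fold higher after 4 h (adjusted p = 7e-10), at least 223-fold higher after 48 h (log2 9.14 ± 0.34, adjusted p = 3.8e-20) and at least 33.8-fold higher after 96 h (log2 6.39 ± 0.34, adjusted p = 1.2e-16). The later fall, from 48 to 96 h, was -2.74 ± 0.34 on the log2 scale (adjusted p = 1.1e-07). Per kilobase of exon free of other annotated rows, *H19* had a normalised count of 356 ± 158 (SD, n = 4) at 48 h, against 991 ± 511 for *Peg10*.

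*Airn*, the paternally expressed RNA antisense to *Igf2r*, had no reads in any sample at 0 or 2 h. At 48 h its normalised counts were 9.42, 5.65, 22 and 13.4, and after 96 h they were 20.2, 31.6, 20.1 and 28.4, all above those at 0 h. This is at least 3.54-fold and at least 7.02-fold above the floor of 3 reads (adjusted p = 4.6e-08 and 2e-10), and with a pseudocount of 4 the log2 difference at 48 h was 1.96, just under 4-fold. *Meg3*, *Rian* and *Mirg*, which lie in a row on chromosome 12 and hold small nucleolar RNAs and microRNAs, moved over a narrower range. All 3 rose by 2 h, *Meg3* from 1463 ± 299 (SD, n = 4) to 2458 ± 351, *Rian* from 3063 ± 242 to 4265 ± 125 and *Mirg* from 238 ± 55.5 to 345 ± 19.7 (adjusted p = 0.00045, 0.0088 and 0.0047). By 96 h all 3 were lower than at 0 h, with log2 changes of -0.51, -1.11 and -0.35 (adjusted p = 0.0065, 4.9e-08 and 0.043). For *Meg3* the log2 change by 96 h was -0.02 in replicates 1 and 2, while in replicates 3 and 4 the mean went from 1690 to 847. *Kcnq1ot1*, the RNA antisense to *Kcnq1*, did not pass the test at any time point against 0 h, with a mean of 68.5 at 0 h and 55.6 after 96 h (log2 -0.20 ± 0.29, adjusted p = 0.55).

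Among the zinc finger and nuclear protein genes, *Peg3* and *Zim1* rose late and *Snrpn* fell. *Peg3*, a paternally expressed zinc finger protein, had 210, 274, 301 and 291 normalised counts at 0 h, 431, 513, 502 and 474 after 24 h, 2510, 2851, 3027 and 3215 after 48 h, and 2420, 2349, 2548 and 2245 after 96 h. Samples from 24 h on lay above all samples at 0 h, those of 48 and 96 h overlapped, and the sets lay close together in this gene. *Peg3* was 10.8-fold higher after 48 h (log2 3.43 ± 0.10, adjusted p = 1.3e-22) and 8.88-fold higher after 96 h (log2 3.16 ± 0.10, adjusted p = 7.1e-22), and within the sets the changes after 96 h were 3.31 and 3.01. *Zim1*, its maternally expressed zinc finger neighbour, had 4.14, 9.51, 0.806 and 0 at 0 h, 37.7, 35.8, 38.7 and 22.7 after 48 h, and 19.1, 15.8, 17.6 and 11.3 after 96 h. The 48 h samples lay above all others, with a log2 difference from 0 h of 3.44 ± 0.53 (adjusted p = 1.3e-06), but by 96 h the difference was 2.41, with 1.32 in replicates 1 and 2 and 3.49 in replicates 3 and 4. With a pseudocount of 4 it was 1.54, under 4-fold.

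*Snrpn*, which encodes the spliceosomal protein SmN, fell late. It had 592, 513, 286 and 317 normalised counts at 0 h, 222, 192, 124 and 126 after 48 h, and 118, 111, 81.6 and 91.7 after 96 h. Later samples lay below all those at 0 h, and replicates 1 and 2 lay above replicates 3 and 4 at all 8 time points. The fall was 4.24-fold at 96 h (log2 -2.02 ± 0.27, adjusted p = 6.3e-08) and -1.79 on the log2 scale within replicates 3 and 4. The row counts only part of the gene: 589 of its 2159 exon bases are shared with *Gm38393*, annotated on the same strand. *Gm38393* had 83.5 ± 29.3 (SD, n = 4) at 0 h, 188 ± 67.0 after 8 h and 31.6 ± 5.62 after 96 h. *Ndn*, a MAGE family protein, rose from 27.8 ± 4.42 (SD, n = 4) at 0 h to 70.4 ± 17.0 after 96 h (log2 1.29 ± 0.23, adjusted p = 1e-05), and *Magel2* of the same family did not exceed 4.10 in any sample.

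Among genes derived from retroelements, *Peg10* had the highest mean normalised count, and the highest mean count per kilobase, of any member at 48 h. By 96 h the order depended on the set: its mean was 7325 against 2384 for *Peg3* in replicates 1 and 2, but 1773 against 2396 in replicates 3 and 4. *Peg10* is a gag-pol derived gene needed in the placenta and is paternally expressed. Its normalised counts were 327, 398, 614 and 610 at 0 h, 857, 809, 2094 and 2187 after 2 h, 9316, 9791, 3512 and 3814 after 48 h, and 7428, 7221, 1850 and 1696 after 96 h. All samples from 2 h on lay above those at 0 h, but the order of the sets turned: replicates 3 and 4 were higher at each time point up to 8 h and replicates 1 and 2 at each time point from 16 h. *Peg10* was 13.6-fold higher after 48 h (log2 3.65 ± 0.41, adjusted p = 4e-09) and 9.33-fold higher after 96 h (log2 2.94 ± 0.41, adjusted p = 1.9e-07). The change by 96 h was 4.34 in replicates 1 and 2 but 1.53, under the 4-fold threshold, in replicates 3 and 4.

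The other members of this group differed little from 0 h or had few reads. *Mcts2*, an intronless copy of *Mcts1*, had 348, 318, 310 and 334 normalised counts at 0 h, 155, 164, 162 and 163 after 48 h, and 281, 283, 299 and 304 after 96 h, a 2.04-fold fall after 48 h (adjusted p = 5.2e-14) of which little was left after 96 h (log2 -0.17 ± 0.07). *Mcts1* had 345 ± 68.2 at 0 h and 435 ± 38.3 after 48 h, and reads shared by 2 so similar genes may not have been counted. *Zrsr1*, a copy of the splicing factor gene *Zrsr2*, went from 212 ± 15.8 to 153 ± 10.1 at 48 h (log2 -0.47 ± 0.10, adjusted p = 0.00017). *Usp29*, a ubiquitin-specific protease gene, stayed between 0 and 14.9 in all samples.

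Membrane proteins and enzymes included risers and fallers. *Sgce*, the paternally expressed epsilon-sarcoglycan gene, had 15.2, 19.7, 33 and 34 normalised counts at 0 h, 193, 191, 146 and 140 after 24 h, 233, 245, 139 and 147 after 48 h, and 215, 260, 156 and 146 after 96 h. Samples from 16 h on lay above those at 0 h, and as in *Peg10* the order of the sets turned, with replicates 3 and 4 higher up to 16 h and replicates 1 and 2 from 24 h. The difference was 2.92 ± 0.35 on the log2 scale at 96 h (adjusted p = 1.1e-08). *H13*, the signal peptide peptidase gene, rose from 235, 228, 197 and 162 at 0 h to 701, 696, 619 and 654 after 96 h, 3.25-fold (log2 1.71 ± 0.10, adjusted p = 8.1e-16). *Ddc*, which encodes aromatic L-amino acid decarboxylase, had 812, 730, 730 and 691 at 0 h, 992, 981, 988 and 843 after 4 h, 82, 81, 73 and 63 after 48 h, and 58.4, 46.3, 85.4 and 108 after 96 h. Every sample from 8 h on lay below every sample at 0 h, and the fall after 96 h was 9.95-fold (log2 -3.37 ± 0.15, adjusted p = 8.5e-19).

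*Mest*, a hydrolase of the endoplasmic reticulum, *Nnat*, which encodes neuronatin, and *Slc22a18*, an organic cation transporter, fell from low levels. *Mest* had 16.6, 13.6, 16.1 and 13.2 normalised counts at 0 h and 1.88, 0, 6.16 and 6.19 after 48 h, with a log2 change of -2.18 ± 0.45 (adjusted p = 8.1e-05) that was -3.24 within replicates 1 and 2 and -1.12 within replicates 3 and 4. Without 48 h replicate 2 the change was -1.58 and with a pseudocount of 4 it was -1.42, both under 4-fold. *Nnat* had 44.2, 34, 22.6 and 15.1 at 0 h and 11.7, 4.21, 10 and 11.3 after 96 h (log2 -1.52 ± 0.37, adjusted p = 0.00059), with changes of -2.29 in replicates 1 and 2 and -0.74 in replicates 3 and 4. *Slc22a18* had 30.4, 38, 21.8 and 24.6 at 0 h and 20.2, 9.47, 1.26 and 4.73 after 96 h (log2 -1.99 ± 0.39, adjusted p = 4.1e-05), and here the changes were -1.23 and -2.75 in the same order. In both, the 96 h samples lay below all samples at 0 h. *Commd1*, involved in endosomal sorting and copper handling, fell by 0.46 ± 0.10 on the log2 scale at 96 h, from 407 ± 51.2 (SD, n = 4) to 297 ± 43.6 (adjusted p = 0.00012). *Impact*, an inhibitor of the GCN2 kinase, ranged from 759 to 1043 over all 32 samples, and its small difference at 96 h (log2 0.20 ± 0.06, adjusted p = 0.0059) became -0.07 when libraries were scaled by total reads. *Rasgrf1*, a RAS exchange factor, did not exceed 4.85 in any sample. The row for *Gnas*, the stimulatory G protein alpha subunit, held only 6.76 ± 4.02 (SD, n = 4) at 0 h and 26.0 ± 5.87 after 96 h. Of its 11186 exon bases, 1469 are shared with *Gm20721* and 988 with *Nespas*, both annotated on the opposite strand. The row keeps 8729 bases free of other annotated rows, and why its count was low was not tested. Though counted among the members that rose, this row is not taken as the level of *Gnas* mRNA.

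**Figure D3:**
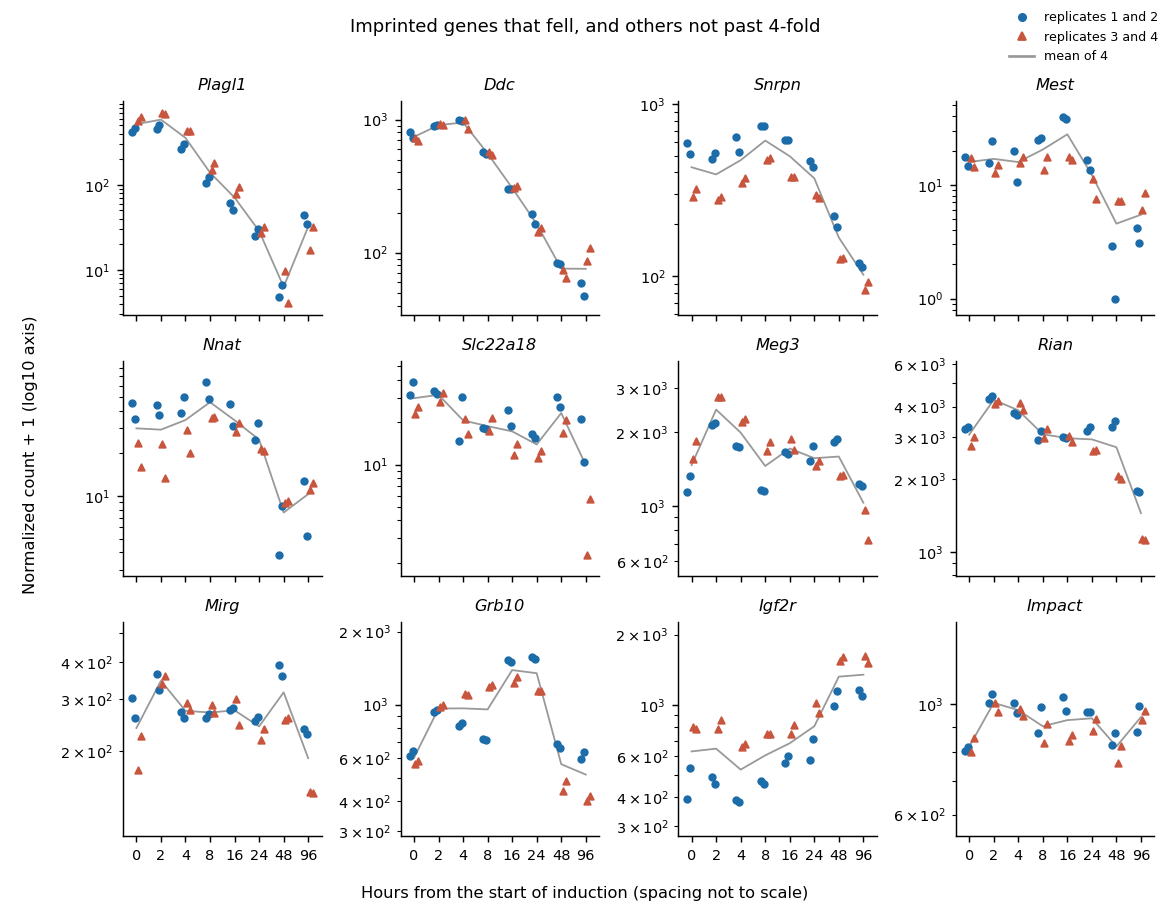
Normalised count + 1 (log10 axis) of 12 imprinted genes that fell or were never called higher by 4-fold, by hours from the start of induction (8 time points, spacing not to scale). Symbols are as in the plot of the rising genes; *Plagl1* and *Ddc* drop from 8 h, *Snrpn* late, the chromosome 12 RNAs *Meg3*, *Rian* and *Mirg* peak at 2 h, and *Impact* stays within 759 to 1043.

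Cells at 2 h and later were all in serum medium, so comparisons with 2 h are between cells in the same base medium. They still differ in the time since the inhibitors were removed and in Dox. Cells at 2 h were in Dox, whereas those at 48 and 96 h had 12 h of Dox and then none. The parts of these in the differences cannot be told apart. At 48 h, 10 members were higher than after 2 h by at least 4-fold and 3 were lower (8.5% and 7.65% of all genes), and after 96 h 8 were higher and 3 lower (9.0% and 10.6%). *H19*, *Igf2*, *Peg3*, *Sgce*, *Airn*, *Cdkn1c*, *Osbpl5* and *Ascl2* were called higher at both times, and *Plagl1* and *Ddc* lower at both. For example, the log2 difference from 2 h at 96 h was 6.51 ± 0.45 for *Osbpl5*, 5.32 ± 0.34 for *H19*, 3.29 ± 0.48 for *Cdkn1c*, 3.15 ± 0.10 for *Peg3* and -3.66 ± 0.15 for *Ddc* (adjusted p = 5.4e-14, 1.1e-14, 3.9e-07, 8e-22 and 1.3e-19). The calls of *Ascl2* rest on its dip at 2 h, with 1, 4, 2 and 2 reads, while its log2 change at 96 h against 0 h was 0.20. *Slc22a18* was called lower against 2 h (-2.10 ± 0.39 at 96 h, adjusted p = 2e-05). In comparisons of neighbouring time points, 8 members were called higher at some step and 3 lower (6.53% and 5.4% of all genes), and the 3 that were called lower, *H19*, *Plagl1* and *Ascl2*, were also among the 8. The step from 24 to 48 h held *Peg3*, *Airn*, *Cdkn1c*, *Phlda2* and *Osbpl5* upward (2.51% of all genes) and *Plagl1* downward (1.41%).

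At 48 and 96 h, a larger share of the chosen members than of all genes differed between the 2 replicate sets. At 96 h, 7 of the 33 members differed by at least 2-fold between the means of replicates 1 and 2 and of replicates 3 and 4, which is 21.2% against 4.44% of all genes tested. At 48 h it was 8 members, 24.2% against 5.7%, and at 0 h 6 members, 18.2% against 9.02%. At 2, 16 and 24 h the shares were 12.1%, 6.06% and 9.09% of members, against 7.2%, 4.19% and 6.23% of all genes. At 4 and 8 h no member differed by 2-fold, against 8.54% and 5.01% of all genes. *Ascl2*, *H19*, *Igf2*, *Peg10* and *Phlda2* differed at both late times, always with replicates 1 and 2 higher. Of the 7 members that differed at 96 h, all but *Peg10* lie on chromosome 7 between positions 142575529 and 143503150. Not all members in this span differed by 2-fold at 96 h: the log2 difference was -0.04 for *Tssc4* and -0.51 for *Kcnq1ot1*. For *Osbpl5*, which starts beyond the span, it was -0.08. The other imprinted genes listed were not compared between the sets. Restricted to genes with a mean of at least 50 over all samples, 4 of 22 members differed at 96 h, 18.2% against 1.19% of all such genes. The median absolute log2 difference between the sets at 96 h was 0.52 among members and 0.16 among all genes. These shares are a description without a test, because the sets were seen in the data and no label defines them.

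Single members carried the set difference in different ways. *Cdkn1c* differed by 2.95 on the log2 scale after 96 h and by -0.06 at 0 h. *Peg10* went from -1.36 after 2 h to 2.05 after 96 h, and its neighbour *Sgce* from -1.64 to 0.65. *Igf2r* was lower in replicates 1 and 2 at all 8 time points, by 0.43 to 0.80, and *Snrpn* higher at all 8, by 0.40 to 0.87. *Peg3*, in contrast, differed by 0.00 at 96 h and *Mcts2* by -0.09.

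**Figure D4:**
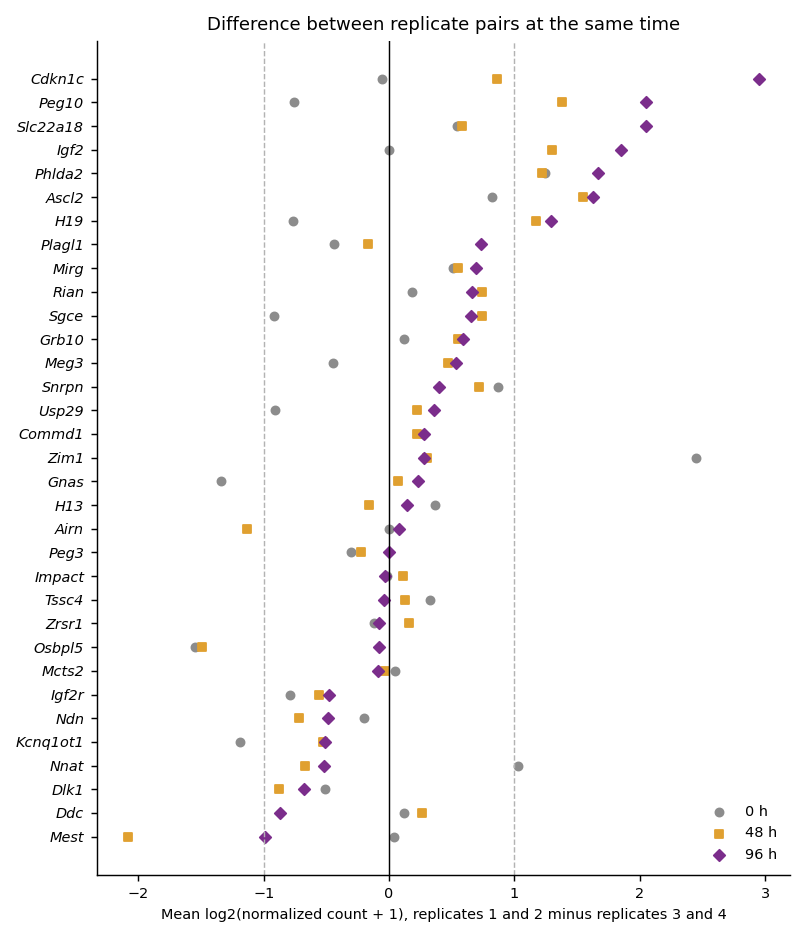
Difference in mean log2(normalised count + 1) between replicates 1 and 2 and replicates 3 and 4 (horizontal axis) for 33 imprinted genes, at 0 h (grey circles), 48 h (orange squares) and 96 h (purple diamonds), ordered by the value at 96 h. Dashed lines mark a 2-fold difference, past which 7 members lie to the right at 96 h, led by *Cdkn1c* at 2.95.

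Because imprinted neighbours often share control elements, the ratio of 8 pairs of neighbouring members was compared between 96 and 0 h with a two-sided exact permutation test of 4 against 4 samples. The smallest p this test allows is 0.0286, and p-values were adjusted over the 8 pairs. The log2 ratio of *Phlda2* to *Slc22a18*, whose starts lie 29414 bases apart, went from -0.73 to 3.47 (change 4.20, exact test, p = 0.0286, adjusted 0.0457). That of *Peg3* to *Usp29* went from 5.24 to 7.47 (change 2.23) and that of *H13* to *Mcts2*, which lies within *H13*, from -0.68 to 1.19 (change 1.87), both with p = 0.0286 and adjusted p = 0.0457 in the exact test. The ratio of *Igf2r* to its antisense RNA *Airn* fell by 3.54, although both genes rose, and that of *Dlk1* to *Meg3* rose by 3.21, with *Airn* and *Dlk1* at or near the detection limit at 0 h (exact test, p = 0.0286 and adjusted p = 0.0457 for each). Few reads also limit the ratios with *Slc22a18* (19, 9, 1 and 5 reads at 96 h) and *Usp29* (2, 9, 10 and 5 at 0 h). *Phlda2* had 3 reads in 0 h replicate 4.

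In the other pairs the ratio did not pass the test. *Peg10* and *Sgce*, whose starts lie 99 bases apart on opposite strands, had a log2 ratio of 4.23 at 0 h and 4.25 after 96 h, while they rose 9.33-fold and 7.62-fold (change 0.02, exact test, p = 0.943). At 96 h that ratio was 5.10, 4.79, 3.56 and 3.53 in the 4 samples, higher in replicates 1 and 2, against a range of 4.13 to 4.34 at 0 h. The ratio of *Igf2* to *H19* was -1.36 after 96 h and -0.38 at 0 h, where both had almost no reads (change -0.98, exact test, p = 0.114, adjusted 0.152). That of *Commd1* to *Zrsr1* moved by -0.25 (exact test, p = 0.257, adjusted 0.294).

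**Figure D5:**
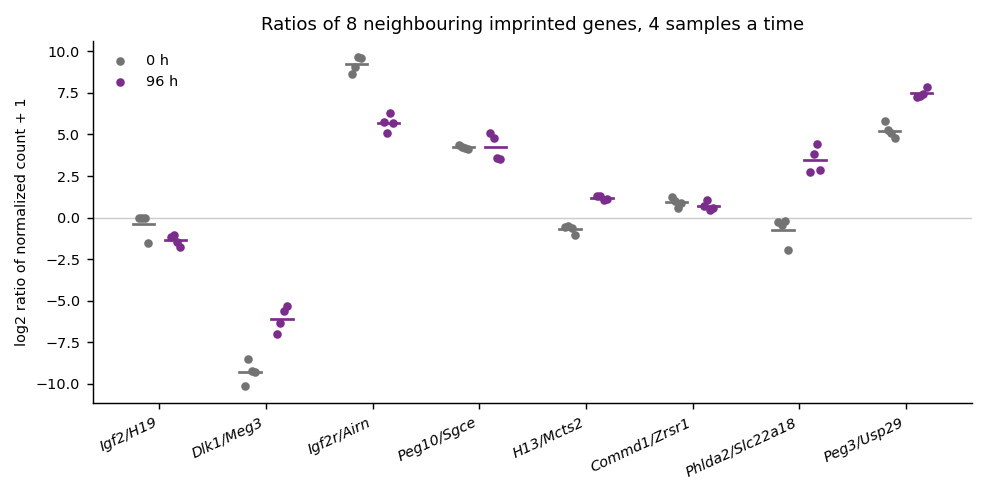
Log2 ratio of normalised count + 1 (vertical axis) of 8 pairs of neighbouring imprinted genes (horizontal axis) at 0 h (grey) and 96 h (purple). Each point is 1 of 4 samples and bars are means; *Phlda2*/*Slc22a18* shifts up by 4.20, *Igf2r*/*Airn* down by 3.54, and *Peg10*/*Sgce* has means of 4.23 and 4.25.

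*Peg3* and *Usp29* are both paternally expressed, on opposite strands, and their starts in GENCODE M21 lie 147 bases apart. Their promoter windows follow the RefSeq starts, which differ somewhat (250 bases before to 50 after the start, GRCm38.p6). These windows share 263 of 300 bases. The *Peg3* window, minus strand, is shown because it covers the starts of both genes, with CG dinucleotides, the sites of DNA methylation, in capitals.
Peg3 window, chr7:6730370-6730669: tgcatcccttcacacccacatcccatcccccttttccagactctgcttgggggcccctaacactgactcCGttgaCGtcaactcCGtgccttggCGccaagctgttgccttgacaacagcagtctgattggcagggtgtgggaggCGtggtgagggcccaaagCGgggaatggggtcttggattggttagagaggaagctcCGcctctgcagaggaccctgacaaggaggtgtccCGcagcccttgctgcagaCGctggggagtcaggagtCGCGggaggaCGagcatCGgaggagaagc
The window holds 13 CG dinucleotides. Of the 36 members, 30 had a RefSeq promoter entry, and the GATA motif AGATAA, searched on both strands, occurred in those of *Rian* and *Slc22a18*, 2 of 30, against 11.2% of 32851 promoters. A match of letters is a description of the window, and its absence says nothing about binding.

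Genes that keep or set imprints changed over the same time. Of 16 such genes, all tested, 2 were called higher and 5 lower by 4-fold at 96 h, and 4 rose and 11 fell at FDR below 0.1 of any size (median log2 fold change -1.01, against -0.03 over all genes). Over all genes tested, 9.28% were higher and 10.3% lower by 4-fold, and 38.0% and 38.5% at any size, so that the share called higher by 4-fold was near that of all genes. *Zfp57*, the KRAB zinc finger protein that guards methylated imprinting control regions, went from a mean of 7333 to 949 (log2 -2.93 ± 0.16, adjusted p = 1.1e-16). *Tet1* and *Dppa3*, which act in demethylation and its control, fell, with log2 changes of -3.33 and -4.61 (adjusted p = 1.6e-21 and 7.2e-11), and so did *Zfp42* with -2.68 (adjusted p = 1.1e-25). *Dnmt3l*, a cofactor of de novo methylation, and *Tet3* rose by 3.40 and 2.77 (adjusted p = 9.3e-06 and 7.2e-17).

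Another 45 imprinted genes were listed for comparison, of which 31 were tested. By 48 h 1 of them was called higher and 2 lower by 4-fold (8.48% and 7.09% of all genes), and 8 rose and 13 fell at any size (36.1% and 37.3%), with a median log2 fold change of -0.10 against -0.02 over all genes. By 96 h 3 were called higher, a share near the 9.28% of all genes, and 7 lower (10.3%), and 9 rose and 16 fell at any size (38.0% and 38.5%), with a median of -0.72 against -0.03. *Sfmbt2*, a Polycomb-related gene that is imprinted in extraembryonic tissue, rose 20.5-fold, from 131 to 2680 (log2 4.39 ± 0.19, adjusted p = 4.8e-19), *Peg13* 9.84-fold and *Peg12* 3.50-fold in means. *Tspan32*, *Qpct* and *Ppp1r9a* fell, with log2 changes of -3.73, -3.08 and -2.83, and *Begain* had no reads at 96 h.

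Of 12 other genes of the insulin-like growth factor axis, 5 were called higher and 1 lower by 4-fold at 96 h, against 9.28% and 10.3% of all genes (median log2 fold change 1.11, against -0.03 over all genes). *Igf1*, the other IGF ligand, had a mean of 0.472 at 0 h and 285 after 96 h, at least 79.9-fold higher (adjusted p = 3.8e-17). The insulin receptor substrates *Irs1* and *Irs2* rose by 3.20 and 2.82 on the log2 scale and the binding protein gene *Igfbp4* by 2.61 (adjusted p = 2.3e-06, 1e-13 and 3.5e-05). *Igfbp2* went the other way, from 377 to 22.8 (log2 -3.99 ± 0.22, adjusted p = 2.4e-16). Both IGF ligands were thus at or near 0 reads at 0 h and detected in every sample after 96 h.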

How the data were processed

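Single-end reads (50 bases) from stranded polyA libraries were trimmed by the authors with cutadapt 2.7, aligned to GRCm38.p6 with HISAT2 2.1.0 and counted per gene with featureCounts (Subread 1.6.4), with FastQC 0.11.8 for quality. Whether counting used strand is not given in the sources used here. The authors deposited the variance-stabilized values of DESeq2, which are on a log2 scale after division by size factors. The lowest value (1.58) stands for 0 reads. Undoing the transformation gave normalised counts, and 100.0% of the values came out as whole reads within 1e-06. A change of 1 read moves a value by 0.626 to 2.42 normalised counts, depending on the depth of the sample, and depth limits genes with few reads.

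Tests used limma 3.58.1 with trend in R 4.3.3 on log2(normalised count + 1), over all 32 samples and 15227 genes, with Benjamini-Hochberg adjustment per comparison. A call needed FDR below 0.1 and a 4-fold change, the size the study used. Folds against groups with at most 3 reads in every library are bounds against 3 reads per library. Ratios were tested with exact tests written in Python 3.11.15 with NumPy 2.4.6. Gene positions come from GENCODE M21 on the same build as the authors' annotation. Members called against 0 h and members of the 8 pairs are named with full values, the rest by range, and of the other lists up to 4 calls in each direction at 96 h. The members and lists were chosen with earlier results of these data known. Alternatives covered pseudocount, filter, scaling, replicate block, threshold, left-out libraries and limma-voom on whole reads.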

Additional observations from a re-analysis of the deposited data

Results flagged for a closer look

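In 8 of 258 groups of 4 samples, 1 sample lay apart from the other 3 by more than Dixon's 95% critical value, where chance flags about 1 in 20 groups. At 48 h, *Dlk1* had 2.83 normalised counts in replicate 1 against 14.1 to 17.0 in the others, *Nnat* 2.83 in replicate 1 against 7.54 to 8.26, and *Zim1* 22.7 in replicate 4 against 35.8 to 38.7. At 96 h, *Nnat* had 4.21 in replicate 2 against 10.0 to 11.7, and *Usp29* 8.51 in replicate 4 against 13.7 to 14.9. Earlier, *Ddc* had 842.5 at 4 h in replicate 4 against 981 to 992, *Osbpl5* 17.1 at 24 h in replicate 4 against 8.12 to 8.41, and *Tssc4* 269.6 at 16 h in replicate 1 against 314 to 322. Except for *Ddc* and *Tssc4*, these are genes with few reads, and none of the values decided a call at 96 h.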

How the results depend on the processing

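With a 2-fold limit, higher and lower counts of members against 0 h were 5 and 2 after 2 h, 6 and 2 after 4 h, 7 and 1 after 8 h, and 10 and 3 after 16 h, with 6 lower after 48 h, 7 lower after 96 h and 11 lower at any time. Against 2 h they were 6 lower after 48 h and 15 higher and 9 lower after 96 h, and between neighbouring times 15 higher and 13 lower. With only genes of a mean of at least 50, fewer genes were tested and the counts higher were 2 after 8 h, 2 after 16 h, 3 after 24 h, 7 after 48 h, 7 after 96 h and 7 at any time, with 0 lower after 2 h and 3 at any time. Against 2 h, 6 were then higher after 48 h and 5 after 96 h. A pseudocount of 4 and the deposited values without inversion each gave 0 lower after 2 h, 2 lower at any time, and 4 higher and 1 lower between neighbouring times, and a pseudocount of 0.5 gave 2 higher after 2 h. Replicates 1 and 2 alone gave 5 lower after 96 h, 5 lower after 96 h against 2 h and 6 lower between neighbouring times, and replicates 3 and 4 alone gave 0 lower after 2 h, 3 at any time and 6 between neighbouring times. The cause of these shifts was not tested.

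Leaving out 1 library at a time, the counts against 0 h stayed at 1 higher and 1 lower after 2 h, and ranged over 3 to 4 higher after 4 h, 3 to 5 higher and 0 to 1 lower after 8 h, 4 to 5 higher after 16 h, 6 to 7 higher after 24 h, 11 to 12 higher and 3 to 4 lower after 48 h, and 10 to 12 higher and 2 to 4 lower after 96 h. Without 0 h replicate 1 or 8 h replicate 4, 1 member was lower after 8 h. Between neighbouring times 3 to 6 were lower, with 5 without 48 h replicate 3 or 96 h replicate 2 and 6 without 48 h replicate 4 or 96 h replicate 1.

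The *Igf2* to *H19* ratio change was -1.15 with a pseudocount of 4 and -1.36 without 0 h replicate 4, past the test's threshold in both (range -1.36 to -0.83). At 0 h *Igf2* had 0 reads and *H19* had 1 read, in replicate 4, so the ratio there was set by the pseudocount. Passing the threshold therefore cannot show a change of ratio. The *Peg10* to *Sgce* change ranged from -0.27 to 0.26 and turned negative without 0 h replicate 4 (-0.01), 96 h replicate 1 (-0.27) or 96 h replicate 2 (-0.16).

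Replicate numbers did not pair the samples: same-numbered samples correlated at 0.196 and the other number of the same set at 0.196, and 15 of 32 samples correlated best with their own number. A replicate block changed no count by over 1.5 times. With pairs formed by replicate number (replicate block), an exact sign-flip test gave its smallest possible p, 0.125, for the changes of *Dlk1* to *Meg3* (3.21), *H13* to *Mcts2* (1.87), *Igf2r* to *Airn* (-3.54), *Peg3* to *Usp29* (2.23) and *Phlda2* to *Slc22a18* (4.20), so it cannot pass 0.05.

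Scaling by total reads in place of size factors moved the median log2 fold change of all genes by -0.14 after 48 h and by -0.26 after 96 h. Of 3245 fold changes of members under an alternative, 111 changed sign, the largest of them 0.65 in size, and of those past FDR 0.1 only the value of *Impact* after 96 h did, under scaling by total reads and limma-voom. Depth limits *Dlk1*, *Airn*, *Mest*, *Zim1*, *Usp29* and, at 96 h, *Slc22a18*, whose levels rest on few reads.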
